A study of Mus musculus with 12 samples.

Results

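The genes described here are the 10 apolipoprotein genes Apoa1, Apoa2, Apoa4, Apoa5, Apob, Apoc1, Apoc2, Apoc3, Apoe and Apom, taken by symbol from a table of liver messenger RNA counts that lists 24527 gene symbols. They were chosen as a family, not by any measured value, and all 10 passed the filter on low counts, as did 13204 symbols in all. The livers came from 12 mice aged 39 weeks, offspring of CF1 mothers and B6SJL fathers, stocks that are not inbred. The natural females and natural males (n = 3 each) came from natural mating, and the IVF females and IVF males (n = 3 each) were IVF offspring. IVF, in vitro fertilization, joins egg and sperm in a dish before the embryo is placed in a foster mother. No gene was altered and no agent was given in any group, as far as the labels say. The study asked how IVF acts on the adult liver and whether it acts differently in each sex.

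Apolipoproteins are the protein parts of lipoproteins, the particles that carry cholesterol and triglyceride in blood, and the liver is their main source. Apob forms the scaffold of very low density lipoprotein (VLDL) and low density lipoprotein, Apoa1 and Apoa2 are the main proteins of high density lipoprotein (HDL), and the smaller exchangeable members move between particles. Apoc2 and Apoa5 favour the breakdown of triglyceride by lipoprotein lipase, Apoc3 and Apoc1 restrain lipolysis or uptake, and Apoe is the ligand by which remnants are taken up.

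The libraries differed in depth, and 2 of them stood apart. Total counts ranged from 6826534 to 27832271 per library. IVF female replicate 1 and natural female replicate 2 had the smallest totals, 6826534 and 8056230, and are called shallow below. Libraries of 1 group differed by more than sampling noise, with a chi-square per degree of freedom of at least 66.3. The 10 hepatocyte markers summed to 76215 to 121803 CPM (counts scaled to a common library size by TMM, a normalization that sets the bulk of genes level), led by Alb. Ass1 was the exception among them, at 0.50 to 4.30 CPM. Enterocyte markers Sis and Cdx1, pancreatic Prss2 and Cpb1, and adipocyte Lep and Retn had 0 counts in every library. Others of these lists did have counts. Per library, enterocyte Fabp2 had 294 to 2196 and Treh 2 to 75, pancreatic Cela1 69 to 843, and adipocyte Fabp4 28 to 177. Apart from these and Ass1, the markers matched the labelled tissue. In such bulk samples, fewer cells of a type and less RNA per cell cannot be told apart.

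The members lie in 2 gene clusters and at 3 single loci (positions from GENCODE M21, build GRCm38). Apoa1 (46228580-46230466, 3 exon blocks), Apoc3 (46232933-46235636), Apoa4 (46240696-46243459) and Apoa5 (46268633-46271919) share 43.3 kb of chromosome 9, with Apoc3 on the opposite strand to the others. Apoc2 (19671579-19677941), Apoc1 (19689481-19692660) and Apoe (19696109-19699188) share 27.6 kb of chromosome 7, all on the minus strand. Apob lies on chromosome 12 (7977648-8016835, 29 exon blocks), Apoa2 on chromosome 1 (171225054-171226379) and Apom on chromosome 17 (35128997-35132050). All 10 are protein-coding.

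Upstream sequences are shown for Apoa4, which had the largest differences by mode of conception, and for Apoc2, which had the largest positive difference in males and very few counts. They are the stretches just before the gene start in RefSeq promoter windows of 300 bases (build GRCm38.p6), cut at the first start given by RefSeq or GENCODE. The Apoa4 stretch is chr9:46240594-46240695, plus strand, with a match to CAAAGTNCA, the letters of a site of the HNF4 type, in capitals. The Apoc2 stretch is chr7:19677942-19678082, minus strand, with AGGTCA, a unit recognized by many nuclear receptors, and GTTAAT, a unit of HNF1 sites, in capitals. It is also cut where the last exon of Apoc4, the next gene upstream on the same strand, ends, so these 141 bases are all that separates the genes.
Apoa4: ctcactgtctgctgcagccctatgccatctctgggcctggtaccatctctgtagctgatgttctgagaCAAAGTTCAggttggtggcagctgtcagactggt
Apoc2: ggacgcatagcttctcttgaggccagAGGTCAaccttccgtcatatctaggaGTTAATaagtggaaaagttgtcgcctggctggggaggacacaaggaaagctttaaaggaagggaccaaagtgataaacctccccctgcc
Both strands were searched for these letters and for TATAAA, the TATA box, in 32851 RefSeq mouse promoter windows of the same length. Of these windows 1.412% held CAAAGTNCA, 16.26% held AGGTCA, 7.099% held GTTAAT and 13.62% held TATAAA. Of the 8 members with a window, CAAAGTNCA was in 1 (Apoa4), AGGTCA and GTTAAT in 1 (Apoc2) and TATAAA in 3 (Apoa2, Apoa5 and Apob). The search letters were chosen after the Apoa4 sequence was seen, and a match is a description of the letters, not of binding. Apoc1 and Apoc3 have no entry in that table.

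Together the members took 3.69% to 5.99% of all counts in a library. In IVF females the share was 3.69%, 4.26% and 5.99% from the lowest to the highest library, and in natural females 4.25%, 4.51% and 5.27%. In IVF males it was 4.16%, 4.74% and 4.78%, and in natural males 4.04%, 4.29% and 4.69%. The ranges of the 4 groups overlapped, and the 95% Wilson interval of each share was no wider than 3.67% to 3.70% in the shallowest library, counting error only.

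Levels were compared between genes as TMM-scaled CPM per kb of exon, averaged over the 12 libraries. Apoe and Apoa2 led, both at 7988 per kb, followed by Apoa1 at 6211 and Apoc1 at 3017. Apob, whose transcript is the longest by far at 13934 exon bases, had 846 per kb, close to Apoc3 at 742. Below them came Apoa5 at 392, Apoa4 at 292 and Apom, a carrier of sphingosine 1-phosphate on HDL, at 185, while Apoc2 had 3.24. The order of several neighbours was not stable from library to library. Apoe was above Apoa2 in 5 of 12 libraries, Apob above Apoc3 in 8 of 12 and Apoa4 above Apom in 6 of 12. Apoc1 was above Apob, and Apom above Apoc2, in 12 of 12.

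**Figure D1:**
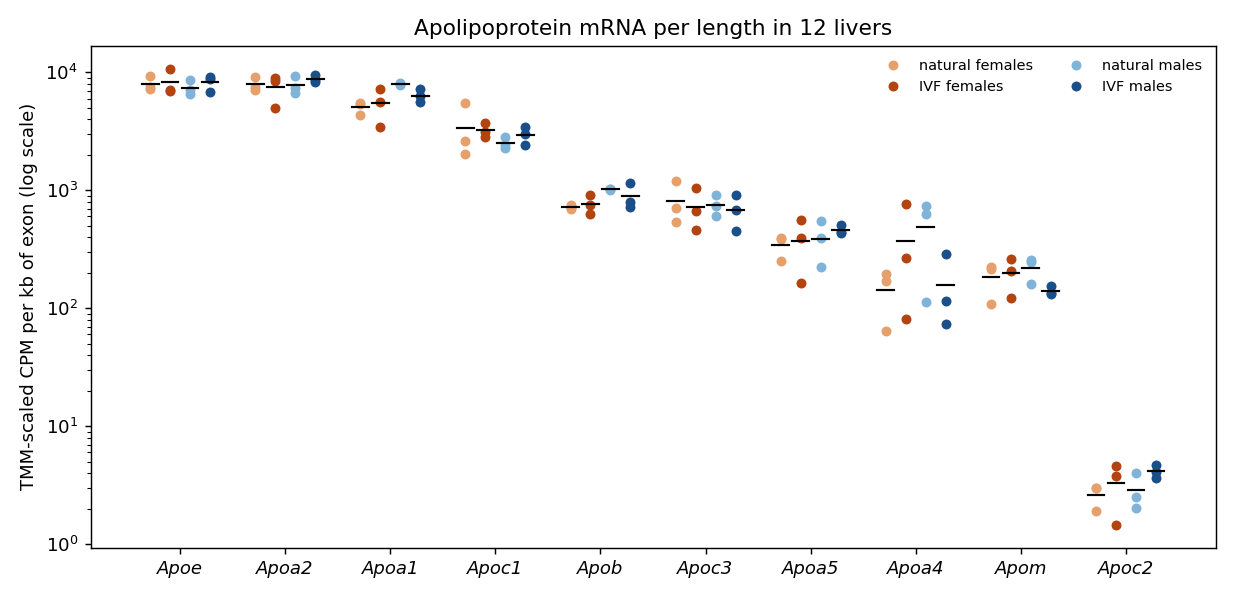
Level of each apolipoprotein gene in TMM-scaled CPM per kb of exon (log scale), with 1 point per library coloured by group and a dash at each group's mean. The groups lie on top of each other for most genes, Apoa4 spreads over 64.4 to 769.8 per kb, and Apoc2 lies 57.2-fold below Apom.

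The counts of Apoc2, the activator of lipoprotein lipase, cannot be taken as its level. It had 8 to 88 counts per library and 630 in all, or 1.17 to 4.00 CPM of the library total. Its neighbours on the same strand were far higher: Apoc4 had 127 to 210 CPM, Apoc1 1532 to 4200 and Apoe 12846 to 25264. In GENCODE M21, 646 of its 813 exon bases (79.46%) are also exon bases of Gm44805, a read-through gene on the same strand. The read-through symbol Apoc4-apoc2 is a row of the table too, with 1 count over the 12 libraries. How reads that fall in both genes were counted is not given in the sources used here, so the low counts and any difference in them are uncertain. Spread over the 167 bases that are not shared, its mean would be 15.8 per kb. Antisense genes cover 69.75% of the exon bases of Apoa4 and 20.78% of those of Apoa5, and the use of strand in counting is not given either.

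The members varied unequally between mice of 1 group. Apoa4 had the widest spread of the 10, with a pooled SD within groups of 1.29 on the log2 scale, at percentile 98.7 of all genes tested and 98.5 of the 653 genes at least as abundant as Apom. Over all 12 libraries Apob had the narrowest at 0.22, percentile 17.9, with Apoe next at 0.25 and Apoa2 at 0.28. The median over all genes tested was 0.38. From its lowest to its highest library Apoa4 spanned 12.0-fold, while its neighbours in the chromosome 9 cluster spanned 2.34-fold (Apoa1), 2.66-fold (Apoc3) and 3.47-fold (Apoa5). Without the 2 shallow libraries these spans were 11.5-fold, 1.5-fold, 2.66-fold and 2.53-fold. Apoa1 then had the narrowest SD within groups at 0.15, before Apoa2 at 0.19, Apoc1 at 0.21 and Apom at 0.25. Apob had 0.26, Apoe 0.27 and Apoa4 1.24, so the order at the narrow end rests on the shallow libraries.

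**Figure D2:**
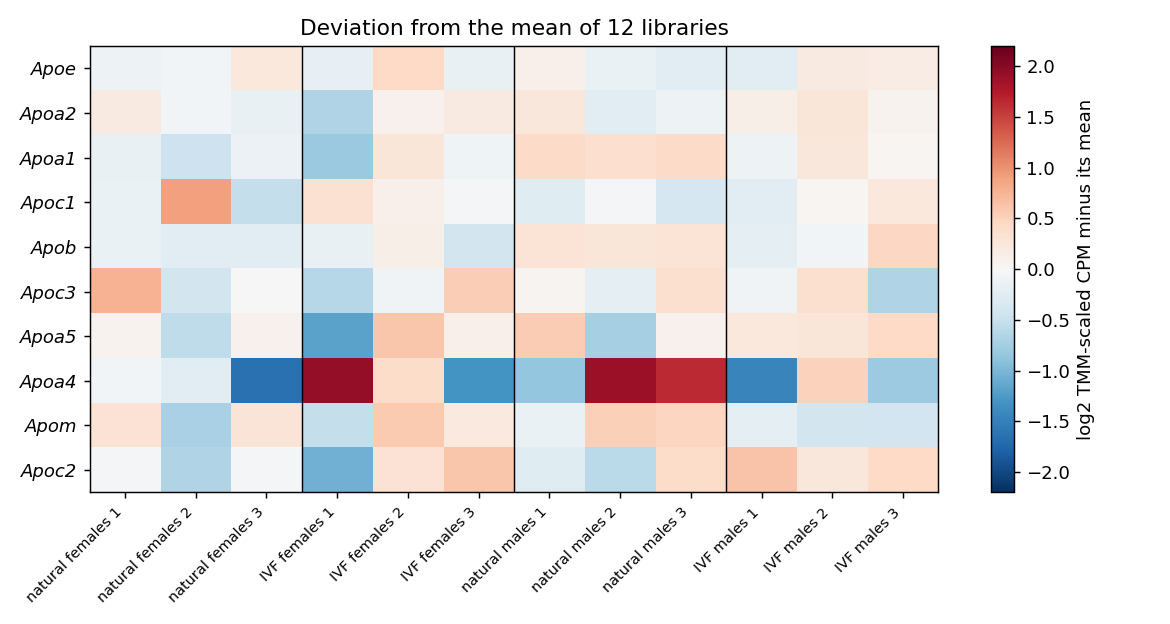
Deviation of each gene's log2 TMM-scaled CPM from its mean over the 12 libraries, with 1 row per gene and 1 column per library, grouped by sex and mode of conception. The row of Apoa4 stands out, from -1.65 in natural female replicate 3 to 1.93 in IVF female replicate 1.

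The shallow libraries, 1 in each female group, shifted several members together. Apoa1, Apoa5, Apoc2, Apoc3 and Apom were lower in both than in any of the other 4 female libraries. Apoc1 was the reverse: it had 2752 CPM in IVF female replicate 1 and 4055 CPM in natural female replicate 2, against 1506 to 2340 CPM in the other females. Apoa2, Apoa4, Apob and Apoe overlapped. The share of all genes tested that separated in this way is not given here, so the separation is not shown to be particular to the members. The median log2 difference between shallow and other females was -0.52 over the members, -0.041 over all genes tested and -0.47 over the 2930 genes with a transcript GC content of 54% to 60%, the range that holds 8 of the 10 members. The values that moved most without both libraries are given beside each comparison that holds females.

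The first question was whether the members differed between IVF and natural females. None of the 10 passed edgeR's quasi-likelihood test with Benjamini-Hochberg adjustment over all genes (adjusted p = 1 for each), beside 0% of all genes tested. At an unadjusted p under 0.05 the count was 0 of 10 by edgeR, DESeq2 and limma voom alike, beside 3.7% of all genes by edgeR. For 0 of 10 were the groups free of overlap, beside 7.42% of all genes (3.55% higher and 3.87% lower in IVF females). The members' median log2 fold change was 0.09 and that of all genes -0.01. For 7 of 10 the 95% interval lay within a 2-fold change either way, so larger differences were outside the interval for these 7 only. The intervals of Apoa4, Apoa5 and Apoc2 reached beyond it. Without both shallow libraries the values that moved most were those of Apoa4, from 1.38 to 0.46, Apoc1, from -0.06 to 0.38, and Apoa2, from -0.08 to 0.12, and 0 of 10 were called.

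In males the count called was again 0 of 10 by the same edgeR test (Benjamini-Hochberg adjusted p = 1 for each), beside 0.00757% of all genes. Without adjustment, at p under 0.05, edgeR and limma voom gave 0 of 10, beside 2.69% of all genes by edgeR, and DESeq2 gave 1 (Apoa4). Median log2 fold changes were -0.0015 for the members and 0.0098 for all genes. Intervals lay within a 2-fold change for 6 of 10. On the TMM scale the groups did not overlap for 2 of 10, beside 8.91% of all genes. Both members, Apoa1 and Apom, were lower in IVF males, as were 4.07% of all genes, with 4.85% higher. As CPM of the library total both members overlapped. Apoa1 then had 8545 in IVF male replicate 2 and 8193 in natural male replicate 2. Apom had 164 in IVF male replicate 1 and 147 in natural male replicate 1. Hepatocyte and macrophage markers moved the same way in this comparison. The summed hepatocyte markers were 76215 to 83218 CPM in IVF males and 92828 to 100860 CPM in natural males. Their median log2 fold change was -0.47, with 1 of 10 above 0 and 0 of 10 at an unadjusted p under 0.05 by edgeR. Macrophage markers summed to 191 to 295 CPM against 355 to 389 CPM, with a median of -0.66 and 6 of 10 at an unadjusted p under 0.05, beside 2.69% of all genes, though 0 of 10 were called by edgeR. Among the other lists of liver cell types, medians were -0.21 (endothelial), -0.16 (stellate), -0.25 (cholangiocyte) and 0.15 (lymphocyte). The part of cell composition in the lower Apoa1 and Apom was not tested.

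Apom had 157, 136 and 133 CPM in IVF males and 163, 257 and 250 CPM in natural males. On this TMM scale the groups did not overlap, but the highest IVF male and the lowest natural male were close. As CPM of the library total the male groups overlapped. With TMM the log2 fold change was -0.65 ± 0.32 (SE) (edgeR, unadjusted p = 0.0677, Benjamini-Hochberg adjusted p = 1). In females Apom overlapped fully, with 124, 267 and 208 CPM after IVF and 225, 110 and 219 CPM after natural conception, and a log2 fold change of 0.11 ± 0.32 (SE). The difference between the sexes in the effect of IVF on Apom was -0.77 ± 0.46 (SE) on the log2 scale (unadjusted p = 0.12, adjusted p = 1, edgeR, Benjamini-Hochberg). Without both shallow libraries it was -0.77 as well, with an unadjusted p of 0.0327 and an adjusted p of 0.997 by edgeR.

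Apoa1 had 6923, 8849 and 7719 CPM in IVF males, below the 9935, 9592 and 9968 CPM of natural males. The 3 natural males were close, the highest 1.04 times the lowest. As CPM of the library total the male groups overlapped. With TMM the log2 fold change was -0.33 ± 0.27 (SE) (edgeR, unadjusted p = 0.256, Benjamini-Hochberg adjusted p = 1). IVF females had 4255, 9006 and 6977 CPM and natural females 6626, 5423 and 6847 CPM, which overlapped.

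Apoa4, a protein of chylomicrons and HDL that mouse liver makes as well as intestine, had the largest differences of the 10 in both sexes and in opposite directions. IVF females had 1397, 485 and 147 CPM and natural females 352, 312 and 117 CPM. IVF males had 133, 521 and 210 CPM and natural males 204, 1345 and 1137 CPM. High libraries occurred in IVF females (1 of 3) and natural males (2 of 3), each group also held a low one, and the groups overlapped in both sexes. The log2 fold change was 1.38 ± 0.84 (SE) in females (95% interval -0.46 to 3.21) and -1.64 ± 0.85 (SE) in males (-3.48 to 0.21). Their difference was -3.01 ± 1.19 (SE), and edgeR gave an unadjusted p of 0.027 and a Benjamini-Hochberg adjusted p of 1. Across the members this interaction gave 0 of 10 called, beside 0% of all genes, and 1 of 10 (Apoa4) at an unadjusted p under 0.05 by edgeR and by DESeq2 and 0 by limma voom, beside 3.87% of all genes by edgeR. The interval of the interaction lay within a 2-fold change for 1 of 10, Apoe, so the data bound it loosely for the rest.

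The female value of Apoa4 rests on 1 library. Without IVF female replicate 1, the shallowest, its log2 fold change was 0.32 and the interaction -1.96, and without both shallow libraries the interaction was -2.10 (edgeR, unadjusted p = 0.11, Benjamini-Hochberg adjusted p = 0.997). Leaving out each library in turn moved the male value between -2.39 and -1.22. Enterocyte markers Sis and Cdx1 were at 0 in all libraries, and the summed level of that list, mostly Fabp2, was 44.1 to 92.1 CPM (IVF females), 41.6 to 81.3 CPM (natural females), 52.0 to 60.7 CPM (IVF males) and 30.8 to 69.6 CPM (natural males). Whether they play a part in the spread of Apoa4 was not tested.

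**Figure D3:**
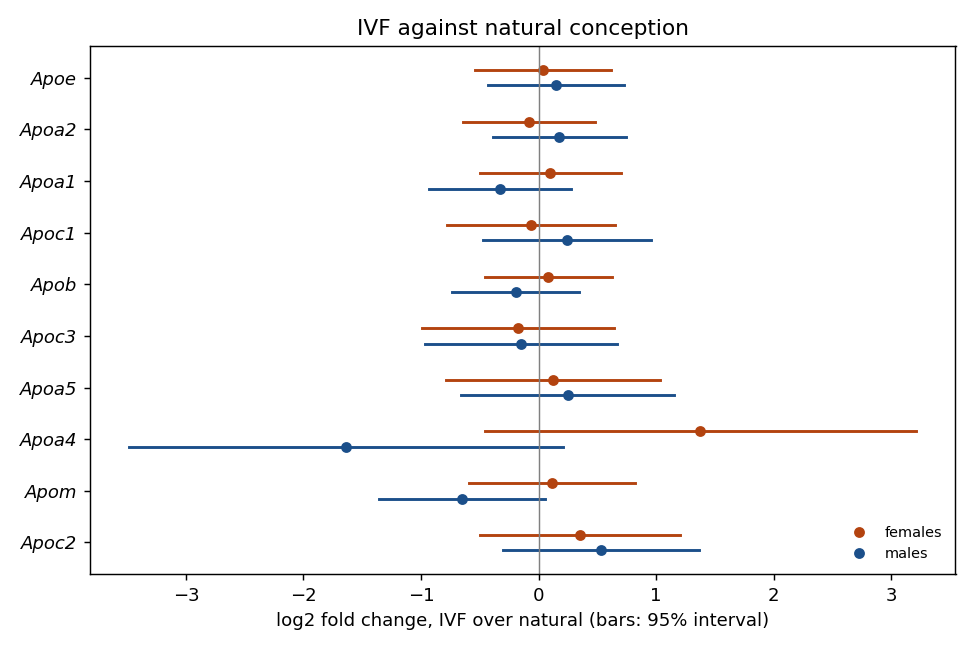
Log2 fold change of IVF over natural conception for each apolipoprotein gene in females and males (points), with 95% intervals of edgeR's model (bars). All 20 intervals include 0, and those of Apoa4 are the widest, around 1.38 in females and -1.64 in males.

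For the other members the 95% interval of the effect of IVF included 0 in both sexes, and those of Apoa5 and Apoc2 reached beyond a 2-fold change. Apoe, the remnant ligand, averaged 17655 ± 4570 CPM (SD, n = 3) in IVF females, 17153 ± 2254 in natural females, 17615 ± 2762 in IVF males and 15893 ± 2145 in natural males. Its log2 fold changes were 0.04 ± 0.27 (SE) in females and 0.15 ± 0.27 (SE) in males. Apoa2 gave -0.08 ± 0.26 (SE) and 0.18 ± 0.26 (SE), and Apob 0.08 ± 0.25 (SE) and -0.20 ± 0.25 (SE). Apoe, Apoa2 and Apob had among the smallest errors of the family, and their intervals lay within a 2-fold change in both sexes. Apoc3, the inhibitor of lipolysis, gave -0.18 ± 0.37 (SE) in females and -0.15 ± 0.37 (SE) in males, from libraries of 458 to 1220 CPM. Apoa5, which promotes lipolysis, gave 0.12 ± 0.42 (SE) and 0.25 ± 0.42 (SE). Its lowest library was IVF female replicate 1 at 410 CPM and its highest IVF female replicate 2 at 1424 CPM, so 1 group held both ends. Apoc1 gave -0.06 ± 0.33 (SE) in females, which became 0.47 without natural female replicate 2, and 0.24 ± 0.33 (SE) in males. Apoc2 gave 0.35 ± 0.39 (SE) and 0.53 ± 0.38 (SE), subject to its uncertain counts.

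Averaged over both sexes, the effect of IVF was within ±0.19 on the log2 scale for 8 members, at -0.27 ± 0.23 (SE) for Apom and at 0.44 ± 0.27 (SE) for Apoc2. It was called for 0 of 10 (edgeR, Benjamini-Hochberg adjusted p = 1 for each), beside 0.00757% of all genes. At an unadjusted p under 0.05 there were 0 of 10 by edgeR, DESeq2 and limma voom, beside 2.69% of all genes by edgeR. The 95% interval lay within a 2-fold change for 8 of 10, Apoa4 and Apoc2 being the others. Without both shallow libraries Apoc2 was at 0.51 (edgeR, unadjusted p = 0.0404, Benjamini-Hochberg adjusted p = 0.933), Apoc1 at 0.31, Apoa5 at 0.28 and Apoa4 at -0.59.

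The second question was whether the members differed by sex. After natural conception 0 of 10 were called by edgeR (quasi-likelihood test, lowest Benjamini-Hochberg adjusted p = 0.302), beside 1.77% of all genes. At an unadjusted p under 0.05 there was 1 of 10 by edgeR (Apoa1), 3 by DESeq2 (Apoa1, Apoa4 and Apob) and 2 by limma voom (Apoa1 and Apob), beside 14.9% of all genes by edgeR. The members' median log2 fold change, male over female, was 0.14, and that of all genes -0.02. On the TMM scale the groups did not overlap for 2 of 10, beside 20% of all genes. Both, Apoa1 and Apob, were higher in males, as were 10.1% of all genes, with 9.85% lower.

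Apoa1 had 9935, 9592 and 9968 CPM in natural males against 6626, 5423 and 6847 CPM in natural females. On this TMM scale all 3 males lay above all 3 females, by more than the spread of either group. The ratio was 1.56-fold, or 0.64 ± 0.28 (SE) on the log2 scale, and edgeR gave an unadjusted p of 0.0386 and a Benjamini-Hochberg adjusted p of 0.302. Apob had 14342, 13933 and 14218 CPM in natural males against 10511, 9784 and 9702 CPM in natural females, again without overlap. Its ratio was 1.42-fold, or 0.50 ± 0.25 (SE), with an unadjusted p of 0.0666 and an adjusted p of 0.372 by edgeR. Within the natural groups Apob libraries were close, spanning 1.03-fold in males and 1.08-fold in females. Scaling to library totals in place of TMM moved the median of all genes to -0.34, Apoa1 to 0.32 and Apob to 0.19. Both stayed above the bulk of genes, but the separation of Apoa1 was lost. As CPM of the library total it had 8193 in natural male replicate 2 and 8263 in natural female replicate 3. Apob still did not overlap, with 11901 in natural male replicate 2 and 11710 in natural female replicate 3. Without both shallow libraries Apoa1 was 0.53 (unadjusted p = 0.0411, adjusted p = 0.279, edgeR, Benjamini-Hochberg) and Apob 0.47.

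Apoa4 was 1.78 ± 0.85 (SE) higher on the log2 scale in natural males, with groups that overlapped (adjusted p = 0.355, edgeR, Benjamini-Hochberg). Apoc1 was the only other member past 1 SE, at -0.43 ± 0.33 (SE), and natural female replicate 2 decided it: without that library it was 0.11. Apoa2 at -0.02, Apoc2 at 0.10, Apoc3 at -0.12, Apoe at -0.11, Apoa5 at 0.17 and Apom at 0.27 lay within 1 SE of 0. Without both shallow libraries Apom was at -0.0040, Apoa5 at -0.03, Apoc2 at -0.08 and Apoc3 at -0.36, so the signs of Apom, Apoa5 and Apoc2 rest on these libraries.

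**Figure D4:**
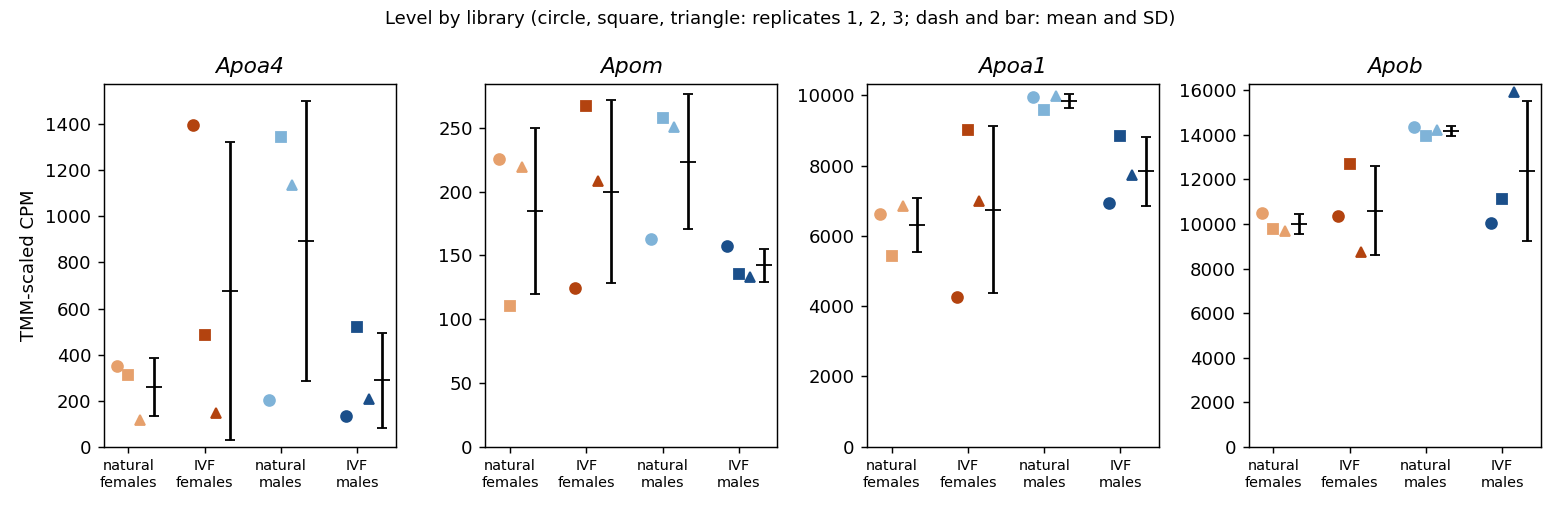
TMM-scaled CPM of Apoa4, Apom, Apoa1 and Apob in every library, by group, with a dash and bar for the mean and SD of 3 libraries. Apoa1 and Apob sit higher in the 3 natural males than in the 3 natural females, Apom sits at 133 to 157 in the IVF males, and Apoa4 ranges from 117 to 1397.

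After IVF 0 of 10 were called by sex by edgeR (lowest Benjamini-Hochberg adjusted p = 0.536), beside 2.19% of all genes. At an unadjusted p under 0.05 there were 0 of 10 by edgeR, DESeq2 and limma voom, beside 14.9% of all genes by edgeR, and the groups were free of overlap for 0 of 10, beside 21.8% of all genes (11.8% higher and 10.1% lower in males). Apoa1 gave 0.21 ± 0.27 (SE), or -0.06 without IVF female replicate 1. Apob gave 0.22 ± 0.25 (SE), with 10362, 12691 and 8737 CPM in females and 10050, 11127 and 15931 CPM in males. Apoa4 gave -1.23 ± 0.84 (SE), or -0.17 without IVF female replicate 1. Apom gave -0.49 ± 0.32 (SE). Apoa2 at 0.24, Apoa5 at 0.30 and Apoc2 at 0.28 became -0.01, -0.10 and -0.05 without both shallow libraries. Without both shallow libraries Apom gave -0.78, with an unadjusted p of 0.0051 and a Benjamini-Hochberg adjusted p of 0.107 by edgeR. No member had a smaller adjusted p under any alternative run.

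Averaged over both modes of conception, the difference by sex was called for 0 of 10 by edgeR (lowest Benjamini-Hochberg adjusted p = 0.208), beside 7.2% of all genes. Without adjustment, p was under 0.05 for 1 of 10 by edgeR (Apoa1) and 2 by DESeq2 and by limma voom (Apoa1 and Apob), beside 23.6% of all genes by edgeR. Apoa1 gave 0.43 ± 0.19 (SE), or 0.23 without both shallow libraries, and Apob 0.36 ± 0.18 (SE), or 0.32 without them. For 9 of 10 members the 95% interval lay within a 2-fold change, so that larger differences by sex were outside the interval for every member except Apoa4. Apom, at -0.11, became -0.39 without them (unadjusted p = 0.0301, adjusted p = 0.143, edgeR, Benjamini-Hochberg). Hepatocyte markers, summed and led by Alb, were 97392 to 121803 CPM after IVF and 94492 to 108316 CPM after natural conception in females. In males the sums were 76215 to 83218 CPM after IVF, below those females, and 92828 to 100860 CPM after natural conception, which overlapped. Over the 10 hepatocyte markers 4 lay above 0 and 1 was called, Hpd at -0.68. Summed macrophage markers were 387 to 570 CPM in the females and 191 to 389 CPM in the males. Of the other marker lists, edgeR called 2 of 9 stellate genes, Dcn at -0.55 and Lrat at -0.83. It also called 2 of 7 lymphocyte genes, Cd79b at -1.39 and Nkg7 at -2.52, and 1 of 2 enterocyte genes, Treh at 1.75. Cd79b had 2 to 32 counts per library and Nkg7 0 to 16. Leaving out each of 12 libraries in turn ended the call of Dcn in 12 cases, of Lrat in 10 and of Nkg7 in 9. It ended that of Cd79b in 8, of Treh in 6 and of Hpd in 4. The part of cell composition in these differences was not tested.

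**Figure D5:**
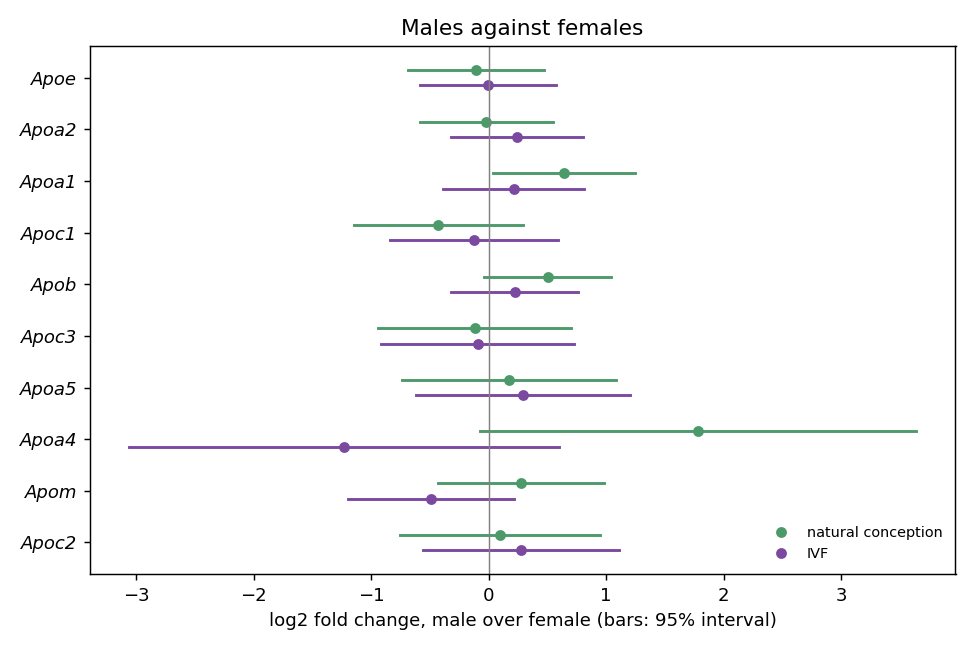
Log2 fold change of males over females for each apolipoprotein gene after natural conception and after IVF (points), with 95% intervals of edgeR's model (bars). The interval of Apoa1 after natural conception, 0.04 to 1.24, is the only 1 of 20 that leaves out 0.

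Genes that work with the apolipoproteins were read from lists chosen with the members. No gene of these lists was called in any IVF comparison by edgeR's quasi-likelihood test with Benjamini-Hochberg adjustment: 0 of 11 other apolipoproteins tested, 0 of 19 of lipoprotein assembly and secretion, 0 of 13 of HDL formation and remodelling, 0 of 15 receptors and uptake genes, 0 of 10 of triglyceride lipolysis and 0 of 28 transcriptional regulators. Over these lists together 4 of 96 genes had an unadjusted p under 0.05 in females and 5 of 96 in males, or 4.17% and 5.21%, beside 3.7% and 2.69% of all genes by edgeR. For the interaction it was 5 of 96, beside 3.87%. In females the genes found included the receptor Cd36 at 1.06 on the log2 scale, the lipolysis gene Lpl at 3.10 and the regulator Mlxipl at -0.57. In males they were Lsr at -0.48, Lrp1 at -0.82, Gpihbp1 at 0.41, Mlxipl at 0.57 and Nr1d1 at 0.57. For the interaction they included Apol9a at -1.49, Apol9b at -1.09, Lpl at -3.11 and Mlxipl. DESeq2 and limma voom called 0 genes of these lists in any IVF comparison as well. Mlxipl, which encodes the carbohydrate response factor ChREBP, had the interaction of smallest p among the regulators, at 1.13 ± 0.33 (SE) (unadjusted p = 0.00517, adjusted p = 1, edgeR, Benjamini-Hochberg). Lpl, the lipase that Apoc2 activates, averaged 104 ± 149 CPM (SD, n = 3) in IVF females against 12.4 ± 7.45 in natural females, so its difference rests on a wide spread.

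By sex, averaged over both modes of conception, the same lists held called genes, beside the 7.2% of all genes called in this comparison and 0 of the 10 members. Vldlr, a receptor that binds Apoe, was lower in males by 3.63 ± 0.39 (SE) on the log2 scale, a log2 fold change of -3.63, with 70.0 and 59.9 CPM in IVF and natural females against 4.85 and 5.63 CPM in IVF and natural males (edgeR, Benjamini-Hochberg adjusted p = 0.00018). Cd36, which takes up fatty acids and lipoproteins, followed at -1.87 (adjusted p = 0.00706), and these were 2 of 15 receptor genes. In assembly and secretion 2 of 19 were called in opposite directions: Tm6sf2, which loads lipid onto VLDL, fell by 1.36 on the log2 scale (adjusted p = 0.00179), and Sort1, a sorting receptor for Apob, was higher by 1.33 (adjusted p = 0.0133). In HDL remodelling 1 of 13 was called, the hepatic lipase Lipc at -0.80 (adjusted p = 0.0156), and in lipolysis 1 of 10, Pcsk5 at -1.27 (adjusted p = 0.0214). Of the other apolipoproteins 1 of 11 was called, Clu at 0.55 (adjusted p = 0.0454). Of 28 regulators 3 were called: Foxa3 at 1.16, Cebpb at 1.30 and Ppargc1a at -1.40. Leaving out each of 12 libraries in turn ended the call of Clu in 11, of Ppargc1a in 10, of Cebpb in 9 and of Pcsk5 in 4 cases, and of the others in 0. These lists' medians ran from -0.07 to 0.18, against 0.15 for the members and -0.01 for all genes.

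The gene outside the family whose log2 CPM followed each member most closely over the 12 libraries was found among all genes tested, as a description only. Pearson's r was 0.94 for Apoa1 with Tesk2, 0.92 for Apoa2 with Polg2, 0.84 for Apoa4 with Them7, 0.92 for Apoa5 with Crebl2 and 0.91 for Apob with Herc2. It was 0.97 for Apoc1 with Tbk1, 0.88 for Apoc2 with Recql5, 0.94 for Apoc3 with Pttg1ip, 0.89 for Apoe with Gpd2 and 0.91 for Apom with Ano8. Each is the highest of 13204 genes tested, and the points share the libraries' depth. Without the 2 shallow libraries r was 0.80 or more for 9 of the pairs and 0.69 for Apoc2. No pair joined members of 1 cluster, since members were left out of the search.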

How the data were processed

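Liver messenger RNA was sequenced in 12 mice (polyA-selected libraries from total RNA, per the labels' protocols). The values are raw read counts per gene symbol, deposited by the authors in 1 table. Trimmomatic 0.32, STAR 2.3.0e, featureCounts 1.5.0 and mm10 are named in the submitters' processing notes, and the annotation, strand setting and treatment of reads matching several genes are not given in the sources used here. Groups came from the sample titles, and replicates were numbered in accession order and pair nothing. IVF female replicate 1 and IVF male replicate 2, which had the highest Apoa4 of their groups, share the first part of the animal number in their titles (734), whose meaning is not given. No other column of counts was left out (0).

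Comparisons used the quasi-likelihood F test of edgeR 4.0.16 under R 4.3.3, by that version's default method, with filterByExpr, TMM and 1 model of 4 group means over 12 libraries. Benjamini-Hochberg adjustment ran over all 13204 genes tested, and an adjusted p under 0.05 was a call. DESeq2 1.42.0, limma voom (3.58.1), size factors of DESeq2, library size alone, other filters, a GC offset (loess, span 0.5), fits to the 6 libraries compared, leaving out Rn45s and leaving out libraries were alternatives. The earlier quasi-likelihood method, also planned, is this version's default and so equals the main test. The newer method was added after seeing the data.

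The members and gene lists were chosen with earlier results of these data known. All members are named. Of the other lists, those called in a comparison could be named and, where a list had none, up to 2 genes of smallest p. Some results for these lists are not reported here. The gene most like a member has the highest r of log2 CPM (prior count 2). Intervals cover counting error only for shares, and p-values the spread between these mice.

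Exon lengths and positions are from GENCODE M21 (23805 symbols matched by name, 347 by synonym, 375 unmatched), and promoters from RefSeq (GRCm38.p6). In simulated counts (13081 genes), some genes were changed in IVF females only. There edgeR recovered 23.4% of 2-fold, 89.7% of 4-fold and 95.4% of 8-fold changes, with 11 false calls. For the interaction it recovered 3.9%, 62.1% and 87.7%, with 8 false calls. The simulation changed no gene as low as Apoc2 and held no shift of the 2 shallow libraries. These shares are therefore not the recovery for the members.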

Additional observations from a re-analysis of the deposited data

How the results depend on the processing

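The count of members called was 0 of 10 in all 7 comparisons under the 23 alternatives run in each, and in the 4 comparisons of 2 groups also in fits to their 6 libraries. Of 1580 log2 fold changes of members that an alternative could move, 1549 moved by less than 1 SE and 31 by more. The sign changed in 102, and in 3 of these, all for Apoc1 by sex, the value had been more than 1 SE from 0. For all genes the number called moved as well, which is a different measure from these shifts. Genes called by sex after natural conception numbered 234 (118 higher and 116 lower in males), 678 by DESeq2, 139 in fits to 6 libraries and 510 (88 and 422) by library size alone, and 111 to 263 when libraries were left out. After IVF they numbered 289 (120 and 169), 721 by DESeq2 and 313 (92 and 221) by library size alone, and 137 to 348 when libraries were left out. For the average difference by sex they numbered 951 (472 and 479), 1693 by DESeq2 and 1625 (252 and 1373) by library size alone, and 519 to 1076 when libraries were left out. IVF comparisons called at most 1 gene by edgeR with TMM, and 4, 5, 9 and 4 by DESeq2 in females, males, interaction and average. Scaling by library size alone moved the median of all genes by sex after natural conception to -0.34. There Apoc2 changed sign to -0.22, Apoa5 to -0.14 and Apom to -0.06, and Apoe moved to -0.43. With 3 mice per group, differences under 2-fold could often not be told from 0, and 8 to 88 counts limit Apoc2. No paired analysis was possible because no compared groups share more than 1 animal number in the titles, and that 1 (IVF female replicate 1 and IVF male replicate 2) has no stated meaning.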

Other observations

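The macrophage marker list, which was outside the comparisons of the family, also differed by sex in these libraries. Averaged over both modes of conception 4 of 10 were called lower in males by edgeR's quasi-likelihood test with Benjamini-Hochberg adjustment, beside 7.2% of all genes in either direction: Vsig4 at -1.44, Timd4 at -1.49, Clec4f at -0.67 and C1qb at -0.63 on the log2 scale. These are markers of the resident macrophages of the liver. By mode of conception, edgeR called 0 of 10 after natural conception (median -0.22), beside 1.77% of all genes. After IVF it called 3 of 10 (median -1.03), beside 2.19%. DESeq2 called 1 of 10 (Vsig4) after natural conception and 7 of 10 after IVF. For the interaction 0 of 10 were called by edgeR, and 5 of 10 had an unadjusted p under 0.05, beside 3.87% of all genes. Leaving out each of 12 libraries in turn ended the averaged call of C1qb in 9 cases, of Timd4 in 7, of Clec4f in 2 and of Vsig4 in 0. No member of the apolipoprotein family was among the genes called in the same comparison.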
